A study of Mus musculus with 6 samples.

Results

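The small leucine-rich proteoglycans are a family of secreted matrix proteins, and 8 of their genes were examined here: Dcn, Bgn and Aspn of class I, Fmod, Lum, Prelp and Omd of class II, and Ogn of class III. They were taken by gene symbol, with every probe set that the platform annotation gives to that gene alone. This gave 19 of the 45101 probe sets on the array, for 8 of the 18193 named genes. 0 probe sets of these genes were shared with another gene. Of the 8 genes, 6 were bright enough to be tested. In follicular dendritic cells (FDC), 4 were called higher than in bone marrow-derived dendritic cells (BMDC): Bgn, Dcn, Prelp and Ogn. Over all 12750 tested genes 5.87% were called higher. A gene can pass the filter on signal through FDC alone, so the count does not stand as support. With dim signals raised to a floor, 2 of the calls were left (Bgn and Ogn). Aspn and Omd stayed dim in nearly every sample. Lum gave at most 80.7, with overlapping FDC and BMDC signals, and Fmod was high on only 1 of the 2 FDC arrays.

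The 6 mouse samples comprised FL-Y activated with an antibody to the lymphotoxin beta receptor (1 array), FL-Y, an SV40 transformed line with FDC-like features (1 array), FDC cultured in vitro (2 arrays) and BMDC (2 arrays). FDC belong to the stroma of B cell follicles and keep antigen on their surface. BMDC are myeloid cells, grown in culture, that present antigen to T cells. Strain, age, time of activation and the number of animals are not stated in the labels, both FL-Y arrays come from the same line, and nothing says that the paired arrays were separate cultures, so p-values measure the spread between these samples only, which may be technical. Total RNA was labelled with biotin and hybridised to 1 array per sample, and the deposited values are linear intensities, called signals below.

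These proteins are built of leucine-rich repeats, most carry glycosaminoglycan chains, and they bind collagen fibrils and set their width and spacing. Class I members carry chondroitin or dermatan sulfate, except that Aspn lacks such a chain, and class II members carry keratan sulfate or bare sugar chains. Dcn and Bgn also bind transforming growth factor beta, and soluble Bgn acts on Toll-like receptors of myeloid cells. In lymphoid organs, the fibres that these proteins coat are made by fibroblast-like stroma.

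The labels were first read against marker genes. Of 10 fibroblast markers 8 were higher in FDC than in BMDC and 0 lower, while of 10 dendritic cell markers 7 were lower and of 8 macrophage markers 8. Over all 12750 tested genes 5.87% were higher and 5.4% lower. A gene can pass the filter on signal through 1 group alone, so the marker counts in this paragraph do not stand as support. With no filter, 7 fibroblast markers were higher, and 6 dendritic cell and 6 macrophage markers were lower. Of 11 tested FDC markers 0 were higher and 3 lower (Fcgr2b, Clu and Mfge8). Under 5 alternatives, among them leaving out BMDC array 2 or FDC array 2, 1 was higher, and Mfge8 lost its call when any 1 of the 4 arrays was left out (limma, adjusted p from 0.0579 to 0.121). The defining complement receptor Cr2 read 119.5 and 4.1 in FDC, against 59.1 and 71.1 in BMDC, so FDC are named here by their label. The FDC cultures also held signals of 6 mast cell markers (sums of 7125 and 11107, against 3072 and 666 in BMDC, 4 of 6 higher) and of 6 T cell markers (sums of 2103 and 1195, against 258.5 and 77.1, 3 of 6 higher, 0 without BMDC array 2 or FDC array 1). With no filter 4 mast cell markers and 1 T cell marker were higher, and with the floor 3 and 0. The ratio of labelling to hybridisation controls was 0.120 and 0.389 for FDC 1 and FDC 2, and 0.124 and 0.639 for BMDC 1 and BMDC 2. It was 0.0735 for activated FL-Y and 0.0524 for FL-Y. Log2 values correlated at r = 0.907 between the FDC arrays and 0.920 between the BMDC arrays, across probe sets that are not independent. The 20th percentile of the arrays, a mark of background level and no measured limit of detection, lay between 8.7 and 15.4.

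**Figure D1:**
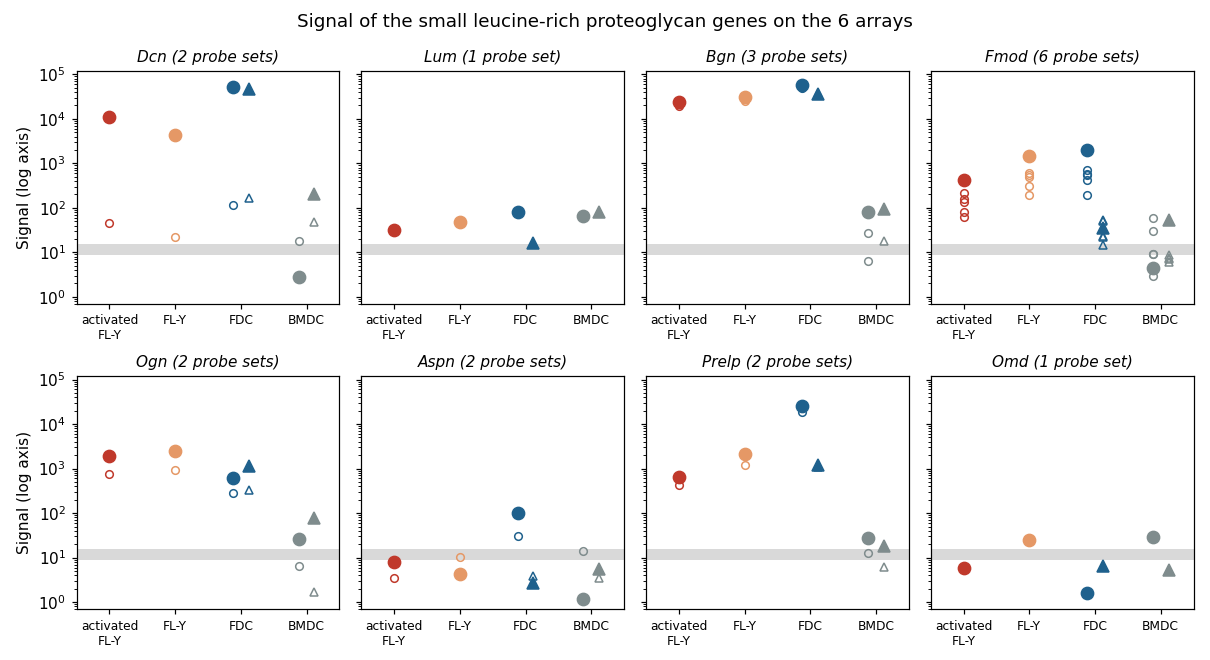
Signal of each gene on the 6 arrays, on a log axis. Filled symbols are the representative probe set (the brightest over the 6 arrays) and open symbols the other probe sets, circles are array 1 and triangles array 2 of a group, and the grey band spans the 20th percentiles of the arrays (8.7 to 15.4). Bgn, Dcn, Prelp and Ogn lie higher on both FDC arrays than on both BMDC arrays, and Fmod and Prelp differ widely between the 2 FDC arrays.

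Class I comes first. Bgn, which organises collagen fibrils, had a signal of 23763 in activated FL-Y, 30408 in FL-Y, 58912 and 35737 in FDC 1 and FDC 2, and 79.0 and 95.4 in BMDC 1 and BMDC 2. Its FDC and FL-Y signals all stood far above both BMDC signals. In FDC the mean was 47325 ± 16387, against 87.2 ± 11.6 in BMDC (SD, n = 2 each). The log2 difference, FDC minus BMDC, was 8.83 ± 0.43 (SE; limma, adjusted p = 0.00264), and the other 2 probe sets of Bgn gave 9.37 and 10.81. All differences here are of log2(signal + 14.2), where the offset is the median 20th percentile of the arrays and shrinks the differences of dim signals, so the size of a difference from a signal near background depends on it.

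Dcn, the prototype of the family, had a signal of 10877 in activated FL-Y, 4233 in FL-Y, 52260 and 47482 in FDC 1 and FDC 2, and 2.8 and 204.5 in BMDC 1 and BMDC 2. The FDC arrays were close to each other, while the BMDC arrays lay on either side of background level. The difference from BMDC was 9.67 ± 1.18 (SE; limma, adjusted p = 0.0107), with 11.59 for FDC 1 minus BMDC 1 and 7.76 for FDC 2 minus BMDC 2. Such array pairs are matched by number only, which is no stated pairing. With signals floored at 3.3 in place of the offset it was 10.91 and lost its call (limma, adjusted p = 0.0574). The other Dcn probe set was dim, with signals of 115.2 and 168.9 in FDC and 47.3 at most in BMDC, and had a difference of 1.79 ± 0.49 (SE; limma, adjusted p = 0.0950).

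Aspn, which binds collagen and lacks the glycosaminoglycan chain of its class, was the dim member of class I. Its representative probe set had signals of 8.0 in activated FL-Y, 4.3 in FL-Y, 98.2 and 2.7 in FDC 1 and FDC 2, and 1.2 and 5.6 in BMDC 1 and BMDC 2. All but FDC array 1 were under their array's 20th percentile, and both Aspn probe sets were too dim to be tested.

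Class II follows. Prelp, a basic protein that binds collagen and heparan sulfate, had a signal of 659 in activated FL-Y, 2104 in FL-Y, 25038 and 1225 in FDC 1 and FDC 2, and 27.7 and 18.3 in BMDC 1 and BMDC 2. Both FDC signals lay above both BMDC signals, but they differed from each other 20.4-fold. The difference from BMDC was 7.24 ± 1.38 (SE; limma, adjusted p = 0.0372), with 9.22 and 5.25 for the same array pairs, and the second Prelp probe set gave 7.61 ± 1.32 (SE; limma, adjusted p = 0.0285). The call of the representative probe set was lost without BMDC array 1 (adjusted p = 0.0855) or BMDC array 2 (0.101, limma).

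Fmod, which guides collagen fibril assembly and crosslinking, had a signal of 424.7 in activated FL-Y, 1429 in FL-Y, 2044 and 34.8 in FDC 1 and FDC 2, and 4.5 and 53.4 in BMDC 1 and BMDC 2. On this representative probe set FDC array 2 lay between the BMDC arrays, so the groups overlapped. On 4 of the 6 Fmod probe sets both FDC arrays lay above both BMDC arrays, for example with 709.9 and 22.7 in FDC and 9.3 and 6.1 in BMDC. The difference was 3.16 ± 1.78 (SE; limma, adjusted p = 0.368), with a 95% interval of -1.33 to 7.65. It was 5.86 without FDC array 2 and 0.46 without FDC array 1, where the probe set was too dim to be tested. Of the 6 Fmod probe sets all were higher on FDC array 1 than on FDC array 2, by 2.46 to 5.39, and 4 were bright enough to be tested, of which 0 passed. Of the 6, 5 carry the suffix that marks probes able to bind similar transcripts, so they are not independent readings.

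Lum, a keratan sulfate proteoglycan of the cornea and of many connective tissues, had a signal of 31.6 in activated FL-Y, 48.4 in FL-Y, 80.7 and 16.6 in FDC 1 and FDC 2, and 64.8 and 80.2 in BMDC 1 and BMDC 2. The FDC and BMDC signals overlapped, with FDC 2 the lowest of the 6. Its difference was -0.68 ± 0.62 (SE; limma, adjusted p = 0.586), with a 95% interval of -2.24 to 0.89, on the only probe set of the gene. Omd, known from bone as osteoadherin, had signals of 5.9 in activated FL-Y, 24.8 in FL-Y, 1.6 and 6.4 in FDC 1 and FDC 2, and 28.9 and 5.3 in BMDC 1 and BMDC 2, and its only probe set was too dim to be tested.

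Ogn, also called mimecan, is the class III member, a small protein linked to collagen fibril growth. It had a signal of 1879 in activated FL-Y, 2534 in FL-Y, 601.3 and 1121 in FDC 1 and FDC 2, and 26.7 and 77.4 in BMDC 1 and BMDC 2. Both FDC signals lay above both BMDC signals, and both FL-Y signals lay above FDC. The difference, FDC minus BMDC, was 3.77 ± 0.58 (SE; limma, adjusted p = 0.0195), and 4.14 ± 0.39 for the second probe set (SE; limma, adjusted p = 0.00529). On the representative probe set, array 1 minus array 2 was -0.88 in FDC and -1.16 in BMDC. Matched by number, which is no stated pairing, the arrays gave 3.91 and 3.63, which hides that spread. Leaving out BMDC array 1 or FDC array 2 ended the call of the representative probe set, with adjusted p-values of 0.0616 and 0.0539 (limma).

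**Figure D2:**
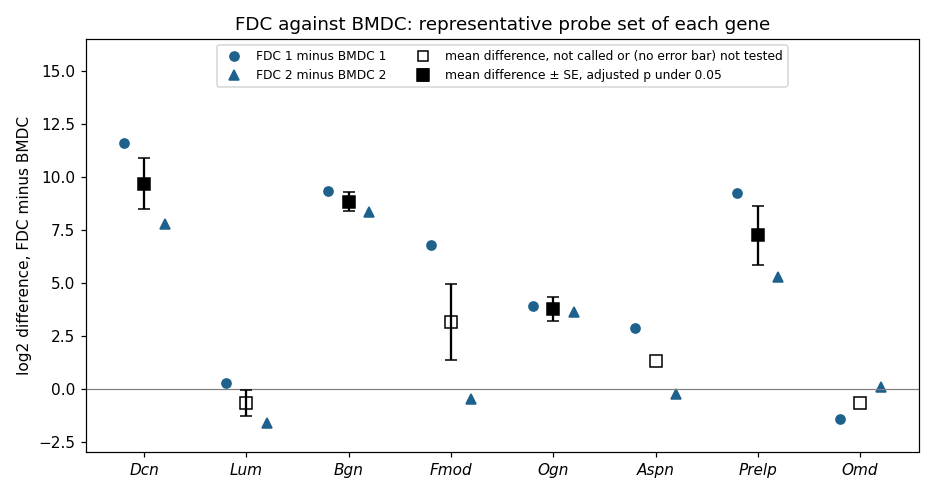
Log2 difference, FDC minus BMDC, for the representative probe set of each gene. Squares are the mean of 2 FDC arrays minus the mean of 2 BMDC arrays with its SE (filled at an adjusted p under 0.05, no bar where not tested), and blue symbols are the differences between the first and between the second arrays. These arrays are matched by number only, which is no stated pairing, so the blue symbols do not show the spread within a group. Dcn (9.67), Bgn (8.83), Prelp (7.24) and Ogn (3.77) are filled, and the array pairs of Fmod lie at 6.78 and -0.46.

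Counted together, 8 of the 19 probe sets were called higher in FDC and 0 lower, where 4.84% and 4.09% of all 27022 tested probe sets were called higher and lower. By representative probe set, 4 of the 8 genes were higher and 0 lower (background 5.87% and 5.4% of 12750 genes). A filter on the mean of the 4 arrays left 14 of the 19 probe sets and 6 of the 8 genes for testing, and a gene that passes it through FDC alone had to differ, so these counts do not stand as support. Both FDC arrays lay above both BMDC arrays for 13 of the 19 probe sets, 4 of them of Fmod, beside 22.4% of all 45037 probe sets. The median difference was 3.47 over the 8 genes and -0.01 over all named genes. In cell mixtures such as these cultures, fewer cells of a type and less RNA per cell cannot be told apart. Of the 4 calls by gene, 2 were left without BMDC array 1 and 3 without BMDC array 2.

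The 2 FDC arrays gave unlike signals for part of the family. By representative probe set, Fmod and Prelp were higher on FDC array 1, by 5.39 and 4.34 on the log2 scale. Only 0.0355% and 0.107% of all probe sets differed as much in that direction. The Fmod value and its share are those of the most extreme of its 6 probe sets, whose median was 3.52. Bgn (0.72) and Dcn (0.14) differed little, and Ogn was lower on FDC array 1 by -0.88. Aspn was higher on array 1 (2.73), with array 2 under background level. Of the 8 genes, 3 were at least 2 higher on FDC array 1 and 0 at least 2 lower, beside 3.17% and 2.87% of named genes. The 4 adipocyte markers on the array were each at least 2 higher on FDC array 1, with a summed signal of 48688 on FDC array 1 and 5884 on FDC array 2. Most of the sum was Lpl, a lipase that BMDC also had (34980 and 5430 in FDC, 40111 and 38254 in BMDC), so the sum is no measure of adipocytes. Fabp4 was at 12595 and 345.2 in FDC, Pparg at 1051 and 103.7, and Adipoq at 62.0 and 4.3. Fabp4 was also unequal between the BMDC arrays, at 1356 and 30.8. Its log2 difference, array 1 minus array 2, was 5.13 in FDC and 4.93 in BMDC. The summed signal of 6 smooth muscle and pericyte markers went the other way, at 19158 and 62430 (591 and 581.4 in BMDC). Most of that sum was Tagln (12979 and 33863) and Acta2, the smooth muscle actin (5937 and 25469). Of these 6 markers, 2 were at least 2 lower on FDC array 1 and 0 at least 2 higher. The part of these cells or of the control ratios in the unequal Prelp and Fmod signals was not tested.

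FL-Y was then set beside cultured FDC, with 1 FL-Y array and therefore no test, and folds are of signal + 14.2. Dcn was 11.7-fold lower in FL-Y, at 4233 against 52260 and 47482 in FDC, well outside the range of the FDC arrays. Ogn was 3.05-fold higher, at 2534 against 601.3 and 1121, also outside that range. Bgn was 1.51-fold lower, at 30408 against 58912 and 35737. Prelp, at 2104, and Fmod, at 1429, lay between their 2 FDC signals. Past a log2 difference of 2 (4-fold), Fmod was higher (2.18) and Dcn lower (-3.55), which makes 1 of 8 genes in each direction, beside 2.49% and 5.43% of named genes. The Fmod difference was -0.51 from FDC array 1 alone, so its sign rests on FDC array 2. The other Fmod probe sets lay between 1.29 and 1.90, under the mark of 2, and the mean over the gene's probe sets was 1.63.

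Against BMDC, 5 of the 8 genes were at least 2 higher in FL-Y (Bgn, Dcn, Prelp, Ogn and Fmod) and 0 lower, beside 5.93% and 8.7% of named genes. The log2 differences were 8.23 for Bgn, 6.12 for Dcn, 5.84 for Prelp, 5.38 for Ogn and 5.34 for Fmod, while those of FDC from the same BMDC arrays were 8.83, 9.67, 7.24, 3.77 and 3.16. The dim Dcn probe set went the other way in FL-Y (-0.27), and the mean over the Dcn probe sets was 2.93. The 2 sets of differences share the BMDC arrays and are not independent. Lum, Aspn and Omd differed from BMDC by -0.46, 0.08 and 0.43 in FL-Y.

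Activation of FL-Y through the lymphotoxin beta receptor, a receptor that maintains follicular stroma, went with unlike differences within the family, again without a replicate. Dcn was 2.56-fold higher, at 10877 in activated FL-Y and 4233 in FL-Y, and its dim probe set was also higher (46.3 and 22.7). Prelp was 3.15-fold lower (659 and 2104), and its second probe set was lower too (425.8 and 1228). Fmod was 3.29-fold lower (424.7 and 1429), and all 6 of its probe sets were lower, by -1.93 to -1.43 on the log2 scale. Thus 1 of 8 genes was at least 1 (2-fold) higher and 2 at least 1 lower, beside 3.75% and 10.2% of named genes.

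The other members moved less on activation. Bgn had a difference of -0.36 and Ogn of -0.43, beside a median of -0.08 over all probe sets. Rescaling the arrays to one median moved that median by 0.27, to 0.19, and put Bgn at -0.0046 and Ogn at -0.08, so both then lay below the median. Dcn, Prelp and Fmod kept their directions under quantile normalization (1.48, -1.65 and -1.68) and under median rescaling (1.71, -1.31 and -1.38). Of all probe sets, 1.79% were higher by as much as Dcn, 2.80% lower by as much as Prelp and 2.32% lower by as much as Fmod. Lum, Aspn and Omd stayed dim, with 48.4 as their highest signal on either FL-Y array.

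**Figure D3:**
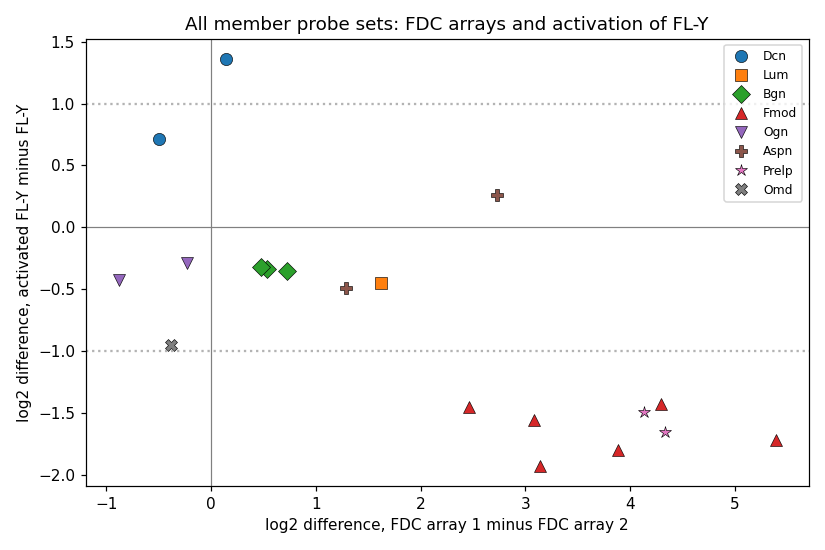
Each point is a member probe set: the x axis is the log2 difference between FDC array 1 and FDC array 2, the y axis the log2 difference of activated FL-Y from FL-Y, and dotted lines mark 1 and -1. All Fmod and Prelp probe sets lie at the lower right, between 2.46 and 5.39 on x and between -1.93 and -1.43 on y, and the Dcn probe sets lie at the top (0.71 and 1.36).

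Several members are neighbours in the mouse genome, so their signals were read side by side. Prelp and Fmod are adjacent on chromosome 1, and both were higher on FDC array 1 and lower in activated FL-Y. Optc, on the other side of Prelp, had signals of 35.4 and 8.6 in FDC and 117 and 69.8 in BMDC, and Btg2, next to Fmod, had 4074 and 4527 in FDC and 2539 and 1531 in BMDC. Dcn and Lum are adjacent on chromosome 10, and Dcn was at 47482 or more in FDC while Lum did not pass its test. Kera, next to Lum, had 15.5 and 9.5 in FDC and 10.5 and 3.4 in BMDC. On chromosome 13 the order is Ecm2, Aspn, Omd and Ogn, of which Ogn was called higher in FDC and the other 3 were too dim to be tested. Ecm2 had 61.7 and 3.4 in FDC and 37.0 and 104.1 in BMDC. Nol8, next to Ogn, had 459 and 345 in FDC and 383.7 and 435 in BMDC. Bgn lies on chromosome X between Haus7 (789.2 and 954.9 in FDC, 546 and 486.5 in BMDC) and Atp2b3 (84.9 and 88.1 in FDC, 56.4 and 105.7 in BMDC).

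Promoters are shown for the called gene with the smallest SE (Bgn), for the neighbours that differed the same way in both comparisons (Prelp and Fmod) and for the called gene Ogn with its dim, untested neighbour Omd. The sequences are the 250 bases before the gene start from a RefSeq promoter table (GRCm38.p6), in which 6 of the 8 genes were matched (all but Dcn and Lum), written 5′ to 3′ on the gene's strand. Capitals mark matches on either strand to 5 motifs: the TATA box TATAAA, the CCAAT box CCAAT, the GC box GGGCGG, the AP-1 motif TGANTCA and the TEAD motif CATTCC.
Bgn, chrX:73483351-73483600 (plus strand): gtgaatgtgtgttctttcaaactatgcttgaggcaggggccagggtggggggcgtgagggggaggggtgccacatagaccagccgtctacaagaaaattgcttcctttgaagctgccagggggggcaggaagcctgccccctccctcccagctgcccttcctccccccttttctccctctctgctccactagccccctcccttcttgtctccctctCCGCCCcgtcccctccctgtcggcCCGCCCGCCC
Prelp, chr1:133921402-133921651 (minus strand): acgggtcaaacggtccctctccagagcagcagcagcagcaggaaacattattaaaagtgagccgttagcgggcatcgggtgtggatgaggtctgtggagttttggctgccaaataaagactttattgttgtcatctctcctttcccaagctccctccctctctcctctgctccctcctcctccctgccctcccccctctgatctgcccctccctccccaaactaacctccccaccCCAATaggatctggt
Fmod, chr1:134037004-134037253 (plus strand): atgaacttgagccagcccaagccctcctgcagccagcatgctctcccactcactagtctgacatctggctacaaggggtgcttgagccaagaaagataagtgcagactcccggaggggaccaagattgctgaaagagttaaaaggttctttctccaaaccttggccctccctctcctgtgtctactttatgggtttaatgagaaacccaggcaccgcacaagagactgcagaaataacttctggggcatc
Ogn, chr13:49607765-49608014 (plus strand): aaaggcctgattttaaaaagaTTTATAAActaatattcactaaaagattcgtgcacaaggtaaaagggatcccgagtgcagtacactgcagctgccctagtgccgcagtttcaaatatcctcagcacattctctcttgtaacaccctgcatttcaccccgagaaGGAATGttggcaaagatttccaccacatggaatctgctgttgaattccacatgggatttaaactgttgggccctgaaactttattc
Omd, chr13:49582212-49582461 (plus strand): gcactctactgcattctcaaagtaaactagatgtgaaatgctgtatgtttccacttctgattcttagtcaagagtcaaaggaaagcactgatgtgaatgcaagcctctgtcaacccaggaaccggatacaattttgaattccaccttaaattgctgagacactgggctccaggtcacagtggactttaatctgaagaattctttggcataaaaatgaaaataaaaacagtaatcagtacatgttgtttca
Bgn held 3 GC boxes, read on the other strand, 34, 10 and 6 bases before the start, of which the last 2 overlap. Prelp held a CCAAT box 15 bases before it. Ogn held overlapping TATA boxes of both strands 229 and 227 bases before the start and a TEAD motif 86 bases before it. Fmod and Omd held 0 of the 5 motifs in this window. The same windows of 32851 promoters held the TATA box in 12.4%, the CCAAT box in 33.8%, the GC box in 32.7%, the AP-1 motif in 6.75% and the TEAD motif in 12.6%. Their GC content was 64.4% for Bgn, 55.6% for Prelp, 51.2% for Fmod, 42.0% for Ogn and 38.4% for Omd, beside a median of 52.4%. These matches describe the letters only, and none of the searched motifs is shared by Prelp and Fmod here.

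The genes with the most similar profile were sought among all 18193 named genes, by the root mean square distance of centred log2 values over the 6 arrays. For Bgn they were Fbln2 (0.24) and Igfbp7 (0.25), where the median gene lay at 4.06. For Dcn they were Fgf7 (0.71) and Tnc (0.82), both of which also had more signal on BMDC array 2 than on BMDC array 1. For Prelp they were Sfrp1 (0.59) and Svep1 (0.66). Sfrp1 had 534 in activated FL-Y, 2313 in FL-Y, 22200 and 1342 in FDC 1 and FDC 2, and 105.2 and 26.3 in BMDC 1 and BMDC 2. For Fmod they were Rasl11a (0.98) and Lgi2 (0.99), and for Ogn Chst2 (0.32), a sulfotransferase, and Ints6 (0.34). The nearest genes of Lum (4930429D17Rik and Gm20740), Aspn (Pcdhb9 and Izumo3) and Omd (4933402D24Rik and Capza3) had 123.4 as their highest signal on any array.

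Other small leucine-rich proteins were read as a group. Of 8 on the array, 2 were bright enough to be tested, and 0 were called with limma (0 also at an unadjusted p under 0.05). Podn, or podocan, had signals of 833 and 107.3 in FDC and 70.3 and 94.0 in BMDC, with a difference of 1.75 ± 0.94 (SE; limma, adjusted p = 0.345), and Nyx had 1.19 ± 0.48 (SE; limma, adjusted p = 0.216). The Podn difference was 3.15 without FDC array 2 (limma, adjusted p = 0.0316), the 1 call of 5 genes then tested, and 0.35 without FDC array 1.

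Large and cell surface proteoglycans were read next. Of 16 tested genes 8 were higher in FDC and 1 lower, beside 5.87% and 5.4% of all 12750 tested genes. The same filter was used for this and the later lists, so their counts do not stand as support either. Tgfbr3, the betaglycan receptor for transforming growth factor beta, had 11980 and 6719 in FDC and 32.9 and 82.8 in BMDC, a difference of 7.05 ± 0.55 (SE; limma, adjusted p = 0.00361). The glypicans Gpc6 (6.22) and Gpc4 (5.03) and the syndecan Sdc2 (5.83) were also higher. Srgn, the serglycin of blood cell granules, was the gene that was lower, at 6376 and 5266 in FDC and 29148 and 25089 in BMDC (-2.22; limma, adjusted p = 0.0272), and its FL-Y signals were 21.7 with activation and 36.5 without. Without 1 array the list held 4 higher (BMDC 1, BMDC 2 or FDC 1) or 7 higher (FDC 2) and 0 lower, so Srgn lost its call in each case, with an adjusted p from 0.0650 to 0.120 (limma). With no filter 3 of 23 genes were higher, with the filter on the highest array 4 of 19 and with the floor 5 of 15, and 0 were lower under each. Gpc6 lost its call without either BMDC array, and without FDC array 1 it was too dim to be tested.

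Enzymes that build the sugar chains formed a further group. Of 23 tested genes of the linker and of chondroitin or dermatan sulfate, 2 were higher and 1 lower. These counts lie near the shares over all tested genes (5.87% and 5.4%), so they are no result about this list. Csgalnact1, which starts chondroitin chains, had 10128 and 2028 in FDC and 341.8 and 90.9 in BMDC (4.56; limma, adjusted p = 0.0486), Chpf had a difference of 2.24, and the sulfotransferase Chst7 was at -3.68. Without BMDC array 2 or FDC array 1, 0 of this list were called, and likewise with no filter, with the filter on the highest array and with the floor (limma). Csgalnact1 also lost its call without BMDC array 1 and under quantile normalization (the latter at an adjusted p of 0.0508, limma). Chpf lost its call whichever array was left out. Of 9 genes of keratan sulfate and tyrosine sulfation, 2 were higher, Chst2 (3.49) and the tyrosine sulfotransferase Tpst1 (2.61), and 2 lower, B3gnt7 (-3.83) and B3gnt2 (-1.93). Without BMDC array 1, and under the same 3 settings of filter and floor, 0 of these were called. B3gnt2 (adjusted p = 0.0517) and Tpst1 (0.0593, limma) also lost their call with the array number as a block.

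Matrix partners, receptors and proteases of the family were read last, again beside 5.87% higher and 5.4% lower over all tested genes. Of 13 tested collagens and matrix partners 7 were higher and 0 lower, with Col3a1 at 9.14, Col1a1 at 8.88, Col5a2 at 8.79 and Col1a2 at 7.89. Of 18 receptors and ligands 4 were higher and 1 lower: Tgfb3 (4.31), Egfr (4.15), the lipoprotein receptor Vldlr (1765 and 1861 in FDC, 203.1 and 224.5 in BMDC) and Lrp1 (2.10, named after its value was seen) were higher, and Met, which binds Dcn, was lower (-4.24). Met lost its call with the array number as a block (adjusted p = 0.0879) and without BMDC array 1 or either FDC array (limma), and 2 were higher without either BMDC array or FDC array 1. Of 13 proteases 7 were higher, among them Mmp3 (7.34), Mmp2 (6.29) and Adamts5 (6.26), and 2 lower, among them the macrophage elastase Mmp12 (-7.70). Of 3 tested cartilage, bone and tendon markers, read because Omd and Prelp are known from those tissues, 0 were called with limma, 1 had an unadjusted p under 0.05, and 1 was called higher without BMDC array 1. The median log2 difference, FDC minus BMDC, was 0.27 for the other small leucine-rich proteins, 0.74 for large and cell surface proteoglycans, 0.18 for chondroitin and dermatan sulfate enzymes and 1.11 for keratan sulfate and tyrosine sulfation. It was 3.63 for matrix partners, 0.03 for receptors and ligands and 4.02 for proteases, beside -0.01 over all named genes.

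**Figure D4:**
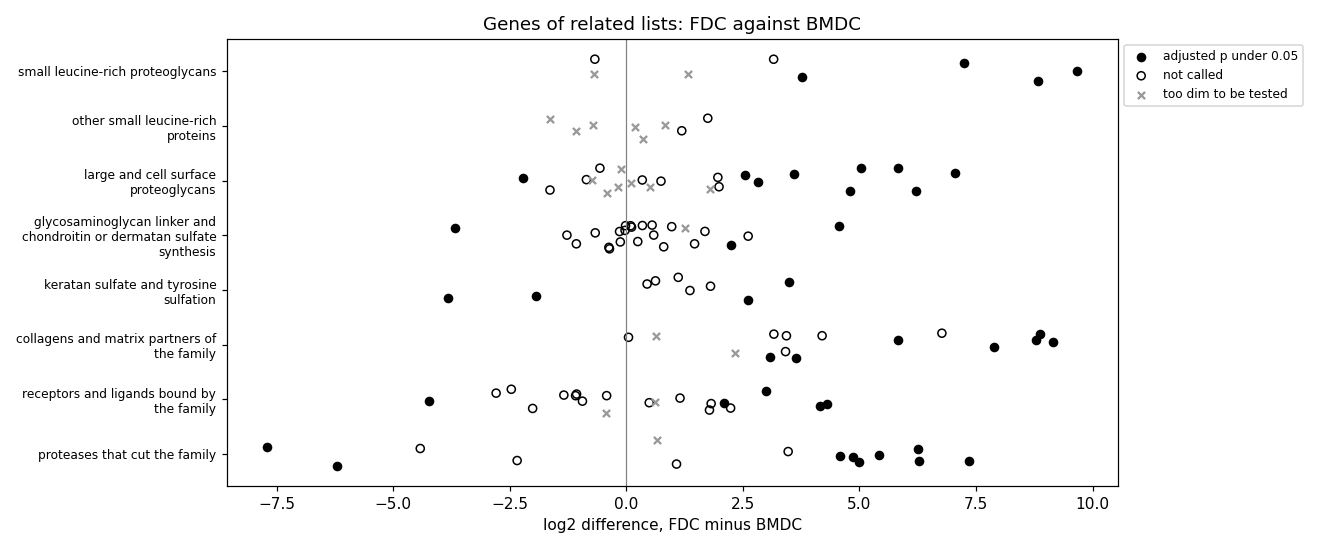
Log2 difference, FDC minus BMDC, of the representative probe set of each gene in the family and in 7 related lists, 1 point per gene with random vertical spread. Filled points had an adjusted p under 0.05, open points did not, and crosses were too dim to be tested. The chondroitin list has a median of 0.18, with Csgalnact1 (4.56) and Chst7 (-3.68) at its ends, the keratan sulfate list has a median of 1.11, and matrix partners reach 9.14.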

How the data were processed

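The table the authors deposited gives a linear intensity for each of 45101 probe sets on every array, 64 of them controls. From the values, the authors had scaled each array to a mean of 500 after trimming 2% at each end. The program that made these values is not given in the sources used here, and the labels name only the biotin labelling. Genes were named by GEO's platform annotation, in which 34945 probe sets carry 1 symbol and 932 carry several. Names of neighbouring genes came from a RefSeq table (GRCm38.p6).

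Values were analysed as log2(signal + 14.2). Probe sets with a mean log2 value over the 4 FDC and BMDC arrays above the 40th percentile of such means (a signal of 46.4) were tested, 27022 in all, with limma 3.58.1 in R 4.3.3 (2 residual and 3.35 prior degrees of freedom), two-sided, with Benjamini-Hochberg adjustment over all of them at 0.05. The fit was also run on simulated normal noise, with changes only in probe sets above the median signal. That run did not model signals near background and its outcome is not reported here, so it does not bear on the calls above. Differences with FL-Y used all 45037 non-control probe sets and no test. Exact permutation of 2 arrays per group has a smallest p of 0.333, so none was run. Precision is limited by having 2 arrays or 1 per group.

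The genes, the lists and the tests were chosen with earlier results of these data known. Named are all members, up to 4 called genes per list (the 2 largest differences where 0 were called), Srgn, Tgfbr3, the genomic neighbours and the 2 nearest profiles of each member. Alternatives were other offsets, scalings, filters and a variance trend, the mean over probe sets, the array number as a block, and leaving out each array.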

Additional observations from a re-analysis of the deposited data

How the results depend on the processing

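With 2 arrays per cell type, the calls were sensitive to single arrays and to background. With signals floored at 3.3, their 5th percentile, and no offset, 5 member probe sets and 2 genes (Bgn and Ogn) were called higher in FDC, and Dcn (adjusted p = 0.0574, limma) and Prelp (0.0609) lost their calls. Without 1 array, 5 to 9 probe sets and 2 to 4 genes were called. Prelp also lost its call with no filter (adjusted p = 0.0702, limma) and with a filter on the highest array (0.0607). No member was called lower in FDC under any of these settings. With the array number as a replicate block 8 probe sets and 4 genes were called, as without it. The numbers are no stated pairing, since the first BMDC array has none in its label, and the differences between array 1 and array 2 of the cell types correlated at r = 0.109 across probe sets.

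Past a log2 difference of 2, FL-Y differed from FDC for 4 genes with the floor, 1 with the offset at the 40th percentile, 1 with the mean over probe sets and 2 to 4 without 1 FDC array. Fmod was -0.51 without FDC array 2 and 4.88 without FDC array 1. Over all probe sets 1454 were called with the floor, 1433 with no filter, 1580 with a filter on the highest array, 1333 without BMDC array 1 and 1312 without BMDC array 2, beside 2413.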

Other observations

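On activation of FL-Y, without a replicate, 3 of 14 proteases were at least 1 higher on the log2 scale and 1 at least 1 lower, beside 3.75% and 10.2% of named genes. Of 24 chondroitin and dermatan sulfate enzymes 0 were higher and 2 lower, of 9 keratan sulfate and tyrosine sulfation genes 0 and 0, and of 23 large and cell surface proteoglycans 3 and 3. The genes named in these paragraphs were chosen after their values were seen. Mmp9, a gelatinase, had a signal of 541.3 in activated FL-Y and 15.4 in FL-Y, and Mmp3, a stromelysin, had 1106 and 185.1. Adamts5, which cuts large proteoglycans, was lower (582.9 and 1643), as was Csgalnact1 (761.4 and 1966). The glypican Gpc1 was higher (1518 and 293.9).

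Of 15 collagens and matrix partners, 4 were at least 2 higher on FDC array 1 than on FDC array 2 and 0 at least 2 lower, beside 3.17% and 2.87% of named genes, and the median difference was 0.61. Col6a1 had 21944 on FDC array 1 and 764.2 on FDC array 2, and Col14a1, a fibril-associated collagen, had 3703 and 81.8, while Col1a2 had 50251 and 43768. Col6a1 and Col14a1 had 4846 and 60.3 on the activated FL-Y array and 6934 and 128.3 on the FL-Y array.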
